A study of Mus musculus with 13 samples.

Results

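A set of 9 mouse genes of the vasoactive systems of the vessel wall were followed through RNA-Seq of sorted endothelial cells (ECs). The 9 genes are Edn1, Ece1, Ednra and Ednrb of the endothelin system, Nos3 of the nitric oxide system, and Adm, Calcrl, Ramp2 and Ramp3 of the adrenomedullin system. They were chosen by name from what their products do, out of 24984 genes listed for tumor ECs and 24421 listed for sprout ECs, and all 9 had enough counts to be tested in both sets. The study asked how the absence of Apelin, a secreted peptide that ECs make and respond to, changes ECs in tumors and in vessel sprouts grown from stem cells.

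The tumor set holds 9 libraries of 100 CD31+/CD105+ ECs each, sorted as living cells negative for the leukocyte protein CD45 from tumors of E0771 mouse mammary cancer cells grown in C57BL6/J mice. In the 3 KO libraries the host mice were Apelin knockouts (Apln-/-) and the injected cancer cells carried shApln, a short hairpin RNA against Apelin, so that host and cancer cells were depleted together. In the 6 WT libraries the mice were wild-type and the cancer cells carried shRenilla, a hairpin against a gene that mice lack. The sprout set holds 4 libraries of CD31+ ECs sorted from embryoid bodies (EBs), balls of differentiating mouse embryonic stem cells of a C57BL/6x129 background, which were moved to collagen I gel at day 8 and received VEGFA164 at 30 ng/ml in both groups. In the 2 libraries labelled STOP (Apln sense) a gene trap lay in the Apelin gene in the orientation that interrupts the transcript. In the 2 libraries labelled GO (Apln antisense) sister cells of the same trapped line had the trap inverted by Cre. By the study's legends the STOP sprouts received DMSO and the GO sprouts the Apelin peptide Pyr13 at 1000 nM, so genotype and added peptide differed together and cannot be told apart. The study's legend counts the tumor libraries by tumor group, which reads as separate tumors. No source used here says that the sprout libraries of a group came from separate cultures, and p-values there measure the spread between these libraries, which may be technical.

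Total counts ranged from 4661044 to 14455093 per tumor library and from 12327030 to 16804071 per sprout library. Levels are given as CPM, counts scaled to a fixed library total with TMM factors, and 3 counts corresponded to 0.211 to 0.596 CPM in tumor libraries and to 0.177 to 0.244 CPM in sprout libraries. Apelin was at 7.67 ± 4.87 CPM (SD, n = 3) in KO and at 796 ± 267 CPM (SD, n = 6) in WT tumor ECs (edgeR, log2 fold change -6.70, adjusted p = 6.13e-05). In the sprouts it was at 73.1 ± 9.95 CPM (SD, n = 2) in the libraries labelled STOP and at 62.1 ± 5.49 CPM (SD, n = 2) in those labelled GO (edgeR, adjusted p = 0.367), so Apelin transcripts were not lower in the libraries labelled STOP, and every direction below is that of the labels. Counts per gene do not show which part of the Apelin transcript was read. EC markers were present throughout, with the summed level of 12 markers between 8392 and 14152 CPM in tumor libraries. In the sprouts this sum was 646 to 869 CPM in STOP-labelled and 2470 to 2580 CPM in GO-labelled libraries, and 11 of the 12 markers decreased in STOP.

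Endothelin-1 is made by ECs as a long precursor that endothelin converting enzyme cuts to the active peptide. It constricts vessels through the type A receptor on smooth muscle and pericytes, while the type B receptor on ECs clears the peptide and triggers release of nitric oxide. Nitric oxide, made in ECs by endothelial nitric oxide synthase, relaxes the vessel wall. Adrenomedullin acts on ECs through the receptor protein encoded by Calcrl, which reaches the cell surface and gains its ligand preference only together with a receptor activity-modifying protein, of which Ramp2 is known for keeping the vascular barrier during development.

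The genes lie apart in the genome, and the positions given here are those of RefSeq on GRCm38.p6, the mm10 build that the labels name. Edn1 lies at chr13:42301476-42307990 on the plus strand, Ece1 at chr4:137862237-137965229 on the plus strand, Ednra at chr8:77663029-77724452 on the minus strand and Ednrb at chr14:103814615-103844508 on the minus strand. Nos3 lies at chr5:24364816-24384474 on the plus strand and Adm at chr7:110627657-110629820 on the plus strand. Calcrl lies at chr2:84330626-84425405 on the minus strand, and both RAMP genes are on the plus strand of the same chromosome, Ramp2 at chr11:101246334-101248250 and Ramp3 at chr11:6658506-6677478. In the GENCODE annotation, exons of Ramp2 share 1103 bases with those of Vps25 on the same strand. Exons of Nos3 share 294 bases with Atg9b and 1040 bases with the antisense gene Gm15587 there. Smaller overlaps of 35 to 101 bases with opposite-strand genes exist for Edn1, Ednra and Ramp3, and reads from such stretches cannot be assigned to a strand where the strand setting of the counting is not given.

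The promoters shown are those of Calcrl and Ednrb, the members with the largest decrease in STOP-labelled sprouts, of Ece1, which decreased less, and of Ramp3, which did not pass the test there. They come from RefSeq (GRCm38.p6), run 5′ to 3′ on the strand of the gene from 250 bases before to 50 bases after a listed start of transcription, which need not be the outer end of the gene given above, and capitals mark GGAA, the core bound by ETS factors, or its reverse complement TTCC. The Calcrl window is chr2:84425217-84425516 on the minus strand, that of Ednrb chr14:103843652-103843951 on the minus strand, that of Ece1 chr4:137861987-137862286 on the plus strand (the first of 4 listed starts) and that of Ramp3 chr11:6658283-6658582 on the plus strand.
Calcrl: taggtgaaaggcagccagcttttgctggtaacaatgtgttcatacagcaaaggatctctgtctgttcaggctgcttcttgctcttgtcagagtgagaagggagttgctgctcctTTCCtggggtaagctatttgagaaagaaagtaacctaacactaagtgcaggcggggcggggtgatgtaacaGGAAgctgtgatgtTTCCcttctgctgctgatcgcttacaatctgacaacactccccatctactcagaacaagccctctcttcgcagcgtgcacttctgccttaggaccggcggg
Ednrb: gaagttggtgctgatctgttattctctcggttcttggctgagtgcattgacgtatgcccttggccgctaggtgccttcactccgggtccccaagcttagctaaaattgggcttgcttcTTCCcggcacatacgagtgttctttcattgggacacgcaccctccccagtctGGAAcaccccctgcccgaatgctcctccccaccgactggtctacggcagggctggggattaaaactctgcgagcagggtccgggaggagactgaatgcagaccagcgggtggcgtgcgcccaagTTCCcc
Ece1: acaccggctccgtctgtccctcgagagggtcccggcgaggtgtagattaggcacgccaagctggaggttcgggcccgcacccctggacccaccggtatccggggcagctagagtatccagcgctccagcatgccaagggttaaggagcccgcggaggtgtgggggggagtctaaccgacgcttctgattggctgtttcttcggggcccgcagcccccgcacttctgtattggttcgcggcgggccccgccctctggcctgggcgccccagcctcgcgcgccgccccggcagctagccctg
Ramp3: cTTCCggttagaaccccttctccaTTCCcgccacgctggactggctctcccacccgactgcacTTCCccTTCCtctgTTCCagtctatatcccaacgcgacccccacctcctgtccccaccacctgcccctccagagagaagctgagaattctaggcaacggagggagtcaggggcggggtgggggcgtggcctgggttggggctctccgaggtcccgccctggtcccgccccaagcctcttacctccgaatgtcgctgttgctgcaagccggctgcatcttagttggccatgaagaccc

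Of the 9 genes, 7 had an entry, with 10 windows of 300 bases in all. GGAA, searched on both strands, matched 3 times in Calcrl, Ednrb and Edn1, 5 times in Ramp3 and Ednra, 2 times in Adm, and in the 4 Ece1 windows 0, 0, 3 and 2 times. It occurs in 96.0% of 32851 promoter windows of this length, so its presence does not set these promoters apart. ACGTG, the core of the hypoxia response element, matched 1 time in Edn1 and 2 times in the third Ece1 window, and in none of the other windows, against 19.6% of all windows. CACCC, the box bound by KLF factors, matched 3 times in Edn1, Ednrb and the third Ece1 window, 2 times in Ramp3 and 1 time in Calcrl and each of the first 2 Ece1 windows, against 57.5% of all windows. GATA matched in Edn1, Ednra, Ramp3 and 3 of the Ece1 windows (57.9% of all windows). TGACGTCA, the cAMP response element, was in none of the 10 windows (1.79% of all windows).

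In the tumor ECs, no member changed between KO and WT by the thresholds of an adjusted p under 0.05 and an absolute log2 fold change over 1. The background was as low, with 1 gene decreased of 13073 tested, Apelin itself (0.00765%), and 0 increased (0%) by edgeR, 384 genes lower and 245 genes higher at an unadjusted p under 0.05, and 97 decreased and 19 increased by DESeq2. KO and WT libraries overlapped for all 9 members, while 2.33% of all genes did not overlap in either direction. The fitted log2 fold change was above 0 for 7 members and below 0 for 2, with a median of 0.28 against -0.03 over all genes. Scaled to the EC markers, which were fitted higher in KO for 12 of 12 genes with none past the thresholds, the median of all genes moved by -0.38 and that of the members to -0.04.

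Among the endothelin genes in tumor ECs, the ligand Edn1 was at 181, 107 and 93.5 CPM in KO replicates 1 to 3, and between 53.4 and 188 CPM with a median of 92.8 in the 6 WT libraries. The KO libraries lie inside the WT range, and the log2 fold change was 0.24 ± 0.38 (SE; edgeR, adjusted p = 1.00). Ece1, the converting enzyme, was at 1006, 2901 and 1211 CPM in KO and between 786 and 1459 CPM with a median of 1316 in WT. KO replicate 2 stands above every WT library and the other two lie within the WT range, with a log2 fold change of 0.46 ± 0.33 (SE; edgeR, adjusted p = 1.00) that turned to -0.16 without KO replicate 2. Ednrb, the receptor of ECs, was at 571, 301 and 1037 CPM in KO and between 289 and 563 CPM with a median of 356 in WT. The KO mean of 636 ± 372 CPM (SD, n = 3) was 1.63-fold the WT mean of 390 ± 109 CPM (SD, n = 6), with KO replicates 1 and 3 above the highest WT library and KO replicate 2 near the lowest. The log2 fold change of 0.71 ± 0.35 (SE) did not pass the test (edgeR, unadjusted p = 0.0581, adjusted p = 1.00). It was 0.16 without KO replicate 3, the highest library, 1.04 without KO replicate 2 and 0.40 with the replicate block, with adjusted p from 0.601 to 1.00 over the alternatives.

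Ednra, the receptor of smooth muscle and pericytes, was near the limit of detection in most tumor libraries. It had 2, 0 and 0 counts in KO replicates 1 to 3 and 2, 770, 16, 6, 36 and 0 counts in WT replicates 1 to 6. WT replicate 2 held most of the WT counts, at 75.2 CPM, and 1 of the WT libraries had none. Ednra passed the filter on low counts only through WT replicates 2, 3 and 5, and without WT replicate 2 or 3 it was not tested, so its fit is no support for a difference. It did not pass after adjustment (edgeR, unadjusted p = 0.0158, adjusted p = 0.957), the groups overlapped, and DESeq2 gave no p. The same WT replicate 2 had a summed level of 6 fibroblast markers of 5032 CPM, against 61.0 to 205 CPM in the other WT libraries and 41.5 to 170 CPM in KO, and a summed level of 10 pericyte and smooth muscle markers of 437 CPM, against 68.5 to 263 CPM in the others and 68.9 to 86.5 CPM in KO. WT replicate 5, second in Ednra at 6.25 CPM, was second in both marker sums. The part of these cells in the Ednra counts was not tested.

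**Figure D1:**
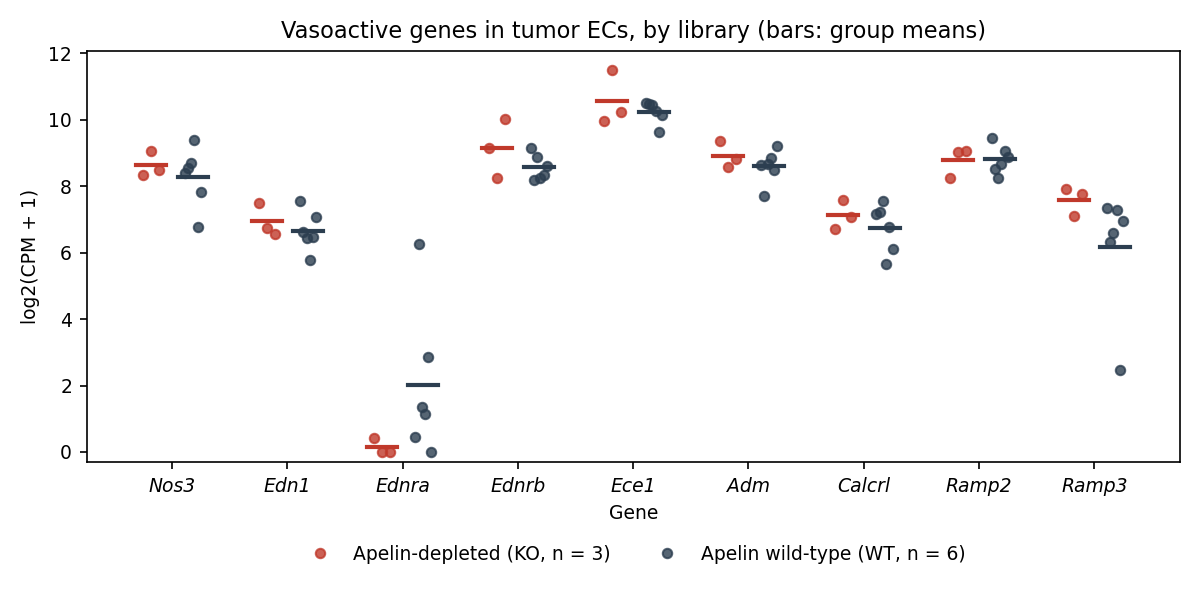
Level of the 9 genes in each tumor EC library as log2(CPM + 1), with KO libraries in red, WT libraries in dark blue and bars at the group means. The groups overlap for all 9 genes, WT replicate 2 stands apart in Ednra at 75.2 CPM and WT replicate 5 in Ramp3 at 4.52 CPM.

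Nos3 was at 319, 538 and 354 CPM in KO tumor ECs and between 109 and 674 CPM with a median of 355 in WT. The WT libraries span the whole KO range, and the log2 fold change was 0.19 ± 0.41 (SE; edgeR, adjusted p = 1.00). Of 31 other genes of nitric oxide synthesis and signal, from its cofactor enzymes to the guanylate cyclase subunits, 26 were tested in tumor ECs and none passed the thresholds, with 13 lower and 13 higher. The lowest p was that of Ddah2, an enzyme that breaks down an inhibitor of the synthase, at 148 ± 79.7 CPM (SD, n = 3) in KO and 87.8 ± 20.9 CPM (SD, n = 6) in WT (edgeR, log2 fold change 0.75, adjusted p = 1.00). Its log2 fold change was 0.22 without KO replicate 3, 0.44 with the replicate block and 0.36 when scaled to the EC markers.

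The ligand Adm was at 655, 385 and 450 CPM in KO tumor ECs and between 210 and 596 CPM with a median of 404 in WT. KO replicate 1 lies above the WT range and the other two within it, with a log2 fold change of 0.30 ± 0.31 (SE; edgeR, adjusted p = 1.00), which was 0.049 without KO replicate 1. Its receptor gene Calcrl was at 104, 189 and 135 CPM in KO and between 49.6 and 187 CPM with a median of 126 in WT, a log2 fold change of 0.28 ± 0.39 (SE; edgeR, adjusted p = 1.00), which was 0.015 without KO replicate 2. Ramp2 was at 302, 522 and 530 CPM in KO and between 305 and 694 CPM with a median of 438 in WT, and its log2 fold change of -0.04 ± 0.31 (SE; edgeR, adjusted p = 1.00) was the nearest to 0 of the 9. Ramp3 was at 241, 135 and 218 CPM in KO and between 4.52 and 161 CPM with a median of 109 in WT. KO replicates 1 and 3 lie above every WT library and KO replicate 2 within their range. The log2 fold change of 0.94 ± 0.68 (SE) did not pass the test (edgeR, adjusted p = 1.00). It was 0.69 ± 0.31 (SE) without WT replicate 5, the lowest library (edgeR, adjusted p = 0.948).

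Within-library ratios of receptor partners also overlapped. The log2 ratio of Ednrb to Ednra, with 0.5 CPM added to each, was 9.89 ± 0.98 (SD, n = 3) in KO and 6.97 ± 2.86 (SD, n = 6) in WT, a difference of 2.92 (exact permutation test, two-sided, p = 0.143, adjusted over the 2 ratios 0.286). With Ednra at 2, 0 and 0 counts, the KO ratio is set by the added 0.5 CPM and by Ednrb, and with 2 CPM added the difference was 2.01. The log2 ratio of Ramp3 to Ramp2 was -1.18 ± 0.81 (SD, n = 3) in KO and -2.67 ± 2.02 (SD, n = 6) in WT, a difference of 1.49 (exact permutation test, two-sided, p = 0.298, adjusted 0.298) that was 0.68 without WT replicate 5. The smallest p that 3 against 6 libraries allow is 0.0119.

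In the sprout ECs, 5 of the 9 members decreased in the libraries labelled STOP against those labelled GO, namely Calcrl, Ednrb, Nos3, Ramp2 and Ece1, and none increased, but scaled to the EC markers none of the 5 passed the test and Ece1 and Ramp2 turned to higher in STOP. In all 14557 genes tested, 3.03% decreased and 0.852% increased (edgeR). Both STOP-labelled libraries were below both GO-labelled libraries for 8 of the 9 members, all but Ednra, against 29.6% of all genes. The median log2 fold change of the members was -1.34 against 0.01 over all genes. DESeq2 called 6 members decreased, with Edn1 added, against 4.65% of 13492 genes. The 12 EC markers had a median log2 fold change of -1.96 in the same libraries, and in sorted bulk RNA fewer ECs and less RNA per EC cannot be told apart. Scaled to the EC markers, the median of all genes moved by 1.77 and that of the members was 0.43.

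Of the endothelin genes in sprout ECs, Edn1 was at 6.37 and 14.7 CPM in STOP-labelled replicates 1 and 2 and at 36.9 and 37.1 CPM in GO-labelled replicates 1 and 2. The STOP mean was 3.52-fold lower than the GO mean, with a log2 fold change of -1.82 ± 0.39 (SE) that missed the threshold (edgeR, adjusted p = 0.0519). It passed with DESeq2 (adjusted p = 4.78e-05), with limma voom (0.0226) and with edgeR without the filter (0.0276), and missed with RSEM counts (edgeR, 0.0844). The level of STOP replicate 2 was above that of STOP replicate 1 by more than the gap within GO, and the edgeR adjusted p was 0.00165 without STOP replicate 2, 0.0591 without STOP replicate 1, 0.244 without GO replicate 1, 0.107 without GO replicate 2 and 0.0980 with the replicate block. Wherever a sprout library is left out, its group holds 1 library, which is assumed to vary like the other group, so such p-values rest on the spread of that group alone and say nothing of the stability of a call. Scaled to the EC markers the log2 fold change of Edn1 was -0.13 (adjusted p = 0.728). Ece1 was at 59.8 and 72.1 CPM in STOP and at 178 and 135 CPM in GO, a log2 fold change of -1.25 ± 0.18 (SE; edgeR, adjusted p = 0.0117), which was 0.51 when scaled to the EC markers. The groups did not overlap, and without STOP replicate 1 its adjusted p was 0.0885.

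Ednrb was at 7.92 and 14.6 CPM in the STOP-labelled and at 61.7 and 43.7 CPM in the GO-labelled sprout libraries. It fell 4.69-fold, with a log2 fold change of -2.24 ± 0.33 (SE; edgeR, adjusted p = 0.0223). Scaled to the EC markers the log2 fold change of Ednrb was -0.52 (edgeR, adjusted p = 0.147). Ednra was at 3.86 and 15.4 CPM in STOP and at 23.9 and 5.73 CPM in GO, so that each group held 1 high and 1 low library and the groups overlapped. Its log2 fold change was -0.64 ± 1.11 (SE; edgeR, adjusted p = 0.764), and 1.03 when scaled to the EC markers. The fibroblast marker sum ordered the 4 libraries in nearly the same way, at 460 and 2946 CPM in STOP and 2922 and 610 CPM in GO, and the pericyte and smooth muscle sum was 281 and 462 CPM in STOP and 692 and 304 CPM in GO, with no gene of either list called. The part of these cells in the Ednra level was not tested.

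**Figure D2:**
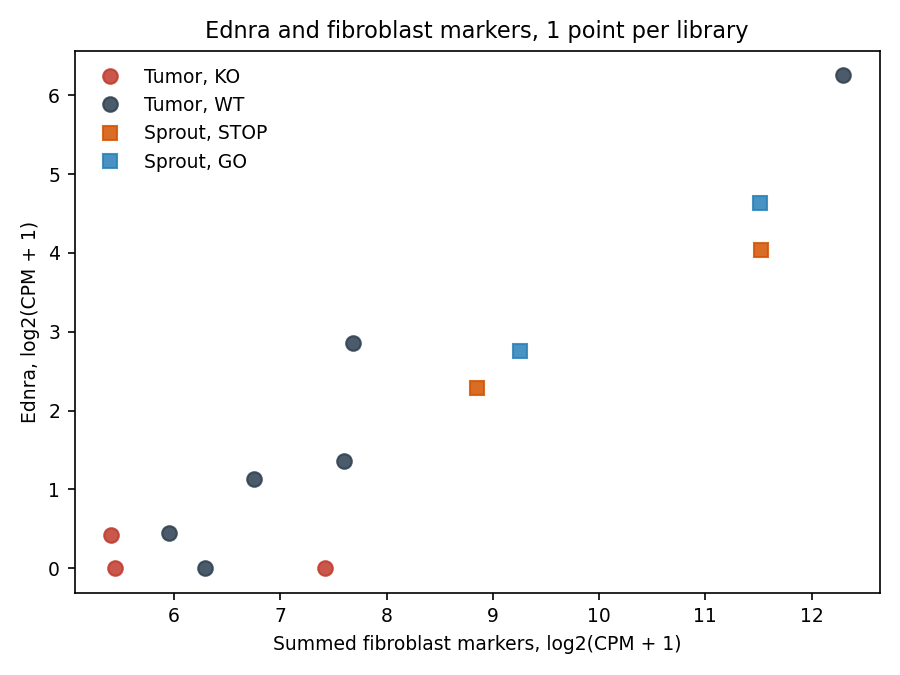
Ednra against the summed level of 6 fibroblast markers, both as log2(CPM + 1), with 1 point for each of the 13 libraries (circles tumor, squares sprout). The highest point in both is tumor WT replicate 2, at 75.2 CPM of Ednra and 5032 CPM of fibroblast markers, and in each sprout group the library with more fibroblast markers has more Ednra.

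Nos3 was at 26.1 and 29.6 CPM in STOP-labelled and at 104 and 88.7 CPM in GO-labelled sprout libraries. It fell 3.47-fold, with a log2 fold change of -1.80 ± 0.16 (SE; edgeR, adjusted p = 0.00263), and was the one member still called with the replicate number as a block. Relative to the summed EC markers its level was 3.72 ± 0.45% (SD, n = 2) in STOP and 3.82 ± 0.32% (SD, n = 2) in GO, and the scaled log2 fold change was -0.04 (edgeR, adjusted p = 0.911). Of the 31 other nitric oxide genes, 30 were tested, and 1 decreased and 0 increased, against 3.03% and 0.852% of all genes tested. The one that decreased was Ddah1, which breaks down an inhibitor of the synthase, at 18.8 ± 3.92 CPM (SD, n = 2) in STOP and 43.4 ± 4.49 CPM (SD, n = 2) in GO (edgeR, adjusted p = 0.0178), with a log2 fold change of -1.21 that turned to 0.53 when scaled to the EC markers. Its adjusted p was 0.100 with the replicate block (edgeR).

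In the adrenomedullin system, Calcrl was at 10.1 and 15.9 CPM in STOP-labelled and at 69.7 and 54.1 CPM in GO-labelled sprout libraries. It fell 4.77-fold, with a log2 fold change of -2.26 ± 0.25 (SE; edgeR, adjusted p = 0.00643), and of -0.53 when scaled to the EC markers (adjusted p = 0.127). This was the largest decrease of the 9 genes in the main fit, but within its SE of that of Ednrb. With limma voom Ednrb fell more, at -2.315 against -2.306 for Calcrl. Its partner Ramp2 was at 32.4 and 30.7 CPM in STOP and at 84.1 and 76.0 CPM in GO, a log2 fold change of -1.34 ± 0.15 (SE; edgeR, adjusted p = 0.00499), which was 0.43 when scaled to the EC markers. Both genes had STOP levels below GO with a gap larger than the spread within either group. The ligand Adm was at 18.4 and 27.1 CPM in STOP and at 41.9 and 41.5 CPM in GO, a log2 fold change of -0.88 ± 0.21 (SE) that did not pass the thresholds (edgeR, adjusted p = 0.0513), and that was 0.85 when scaled to the EC markers. Ramp3 was low in the sprouts, at 5.55 and 6.27 CPM in STOP and at 7.02 and 9.85 CPM in GO. Its log2 fold change was -0.51 ± 0.31 (SE; edgeR, adjusted p = 0.322). Scaled to the EC markers it was 1.24 (edgeR, adjusted p = 0.00659). On that scale the median of all genes was 1.77 and 85.8% of them were called increased.

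**Figure D3:**
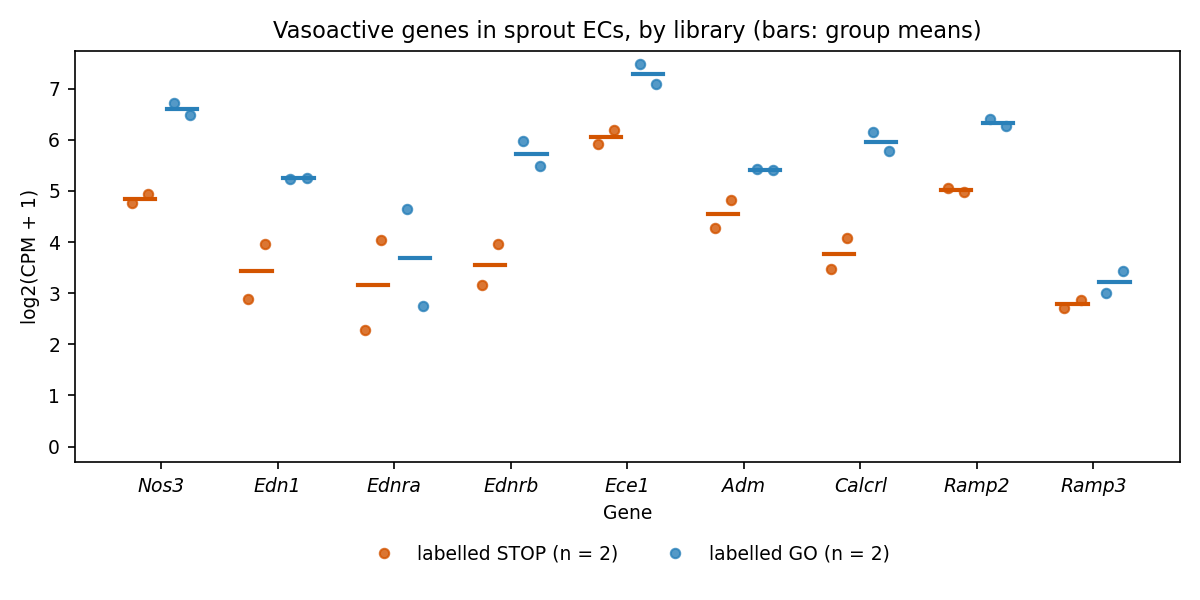
Level of the 9 genes in each sprout EC library as log2(CPM + 1), with STOP-labelled libraries in orange, GO-labelled libraries in blue and bars at the group means. STOP lies below GO in 8 genes and overlaps it in Ednra, and scaled to the EC markers Ednra, Ece1, Adm, Ramp2 and Ramp3 turn to higher in STOP.

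The genes were also expressed as a percent of the summed EC markers of the same library, a scale whose divisor was lower in the STOP-labelled libraries. Of all 14557 genes, 92.8% had both STOP-labelled libraries above both GO-labelled libraries on this scale and 0.866% had both below. Calcrl was at 1.70 ± 0.19% (SD, n = 2) in STOP and 2.45 ± 0.36% (SD, n = 2) in GO, and Ednrb at 1.45 ± 0.32% (SD, n = 2) and 2.08 ± 0.44% (SD, n = 2), and for these 2 receptors both STOP-labelled libraries stayed below both GO-labelled libraries. For 4 of the 9 genes both were above, a smaller share than that of all genes. Ece1 was at 8.78 ± 0.68% (SD, n = 2) in STOP and 6.17 ± 1.02% (SD, n = 2) in GO, and Adm at 2.98 ± 0.20% (SD, n = 2) and 1.65 ± 0.04% (SD, n = 2). Ramp2 was at 4.27 ± 1.05% (SD, n = 2) in STOP and 3.17 ± 0.13% (SD, n = 2) in GO, and Ramp3 at 0.791 ± 0.098% (SD, n = 2) and 0.335 ± 0.089% (SD, n = 2). Nos3, Edn1 and Ednra overlapped. In the fit scaled to these markers, 2 members were called increased in STOP, Ednra and Ramp3, and 0 decreased, against 12483 genes increased (85.8%) and 16 decreased (0.11%) over all genes. In tumor ECs the same percentages overlapped between KO and WT for all 9 genes, and 4.06% of all genes did not overlap in either direction.

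**Figure D4:**
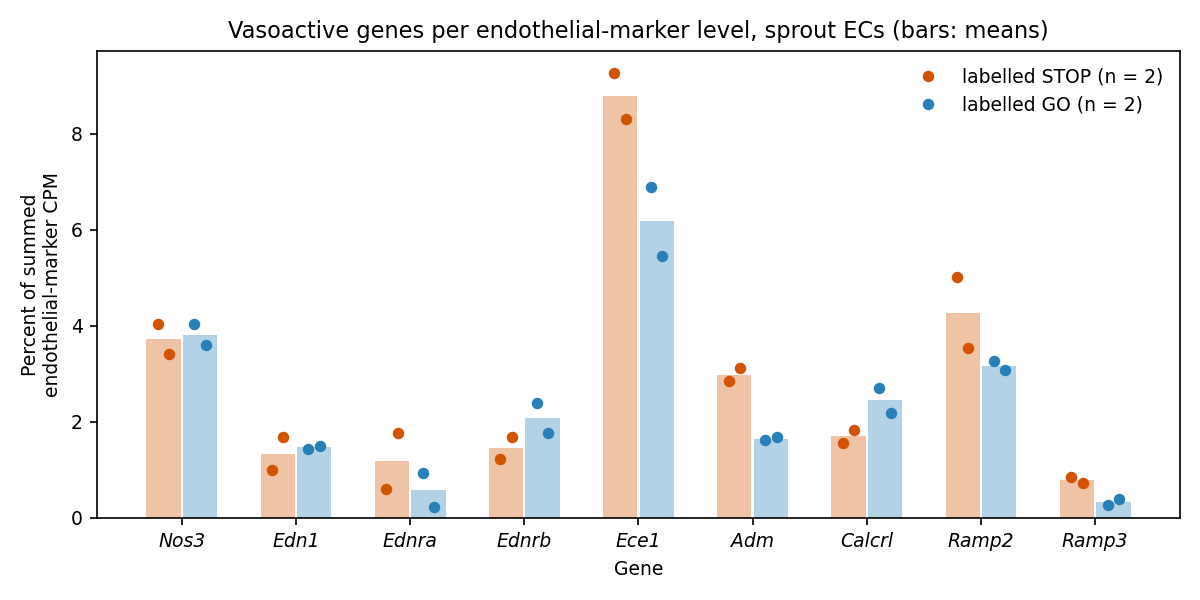
Level of each gene as a percent of the summed CPM of 12 EC markers in the same sprout library, with points for libraries and bars for group means. Calcrl and Ednrb are lower in STOP, Ece1, Adm, Ramp2 and Ramp3 are higher in STOP, and Nos3, Edn1 and Ednra overlap, on a scale where 92.8% of all genes are higher and 0.866% lower in STOP.

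The libraries labelled STOP also differed in markers of other cells. The summed level of 6 pluripotency markers was 4414 to 4416 CPM in STOP and 1624 to 2705 CPM in GO, with 1 of 6 increased, and that of 6 erythroid and early blood markers was 16.05 to 58.7 CPM in STOP and 194 to 290 CPM in GO, with 0 of 5 tested called. The 4 lymphatic EC markers summed to 110 to 117 CPM in STOP and 228 to 266 CPM in GO, with 1 decreased. Epithelial markers summed to 758 to 968 CPM in STOP and 580 to 637 CPM in GO and leukocyte markers to 22.1 to 43.3 CPM and 23.1 to 31.6 CPM, with none called in either list. In tumor ECs none of the 8 marker lists held a called gene. There, although the gate left out CD45+ cells, leukocyte markers summed to 6.54 to 846 CPM in KO and 28.3 to 623 CPM in WT, lymphatic EC markers to 245 to 2008 CPM and 93.5 to 2265 CPM, epithelial markers to 9.71 to 44.7 CPM and 7.67 to 66.8 CPM, and pluripotency and erythroid markers to at most 5.48 CPM in any library. The part of these cells in the members' levels was not tested.

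The other genes of these systems were taken from lists that exclude the members. Their counts stand against 3.03% decreased and 0.852% increased of all genes tested in sprout ECs. Scaled to the EC markers, 85.8% of all genes were called increased and 0.11% decreased, and the median of all genes moved by 1.77. An increase on that scale, with its p-value, therefore does not by itself set a gene apart. Of 8 other endothelin genes, 5 were tested in sprout ECs and 1 increased, Mme, a membrane endopeptidase that degrades endothelin among other peptides, at 83.2 ± 5.06 CPM (SD, n = 2) in STOP and 29.4 ± 4.06 CPM (SD, n = 2) in GO (edgeR, log2 fold change 1.501, adjusted p = 0.00472, and 0.0544 with the replicate block), and its log2 fold change scaled to the EC markers was 3.28 (adjusted p = 1.83e-18). Of 14 other adrenomedullin and CGRP genes, 12 were tested, and 3 decreased and 1 increased. Gpr182, an orphan receptor once assigned to adrenomedullin, was at 1.53 ± 0.25 CPM (SD, n = 2) in STOP and 7.82 ± 0.79 CPM (SD, n = 2) in GO (edgeR, log2 fold change -2.35, adjusted p = 0.0137), and its log2 fold change scaled to the EC markers was -0.61 (adjusted p = 0.278). The adenylyl cyclases Adcy4 and Adcy6, which make the cAMP raised by the Calcrl receptor, had log2 fold changes of -1.88 (edgeR, adjusted p = 0.0132) and -1.42 (adjusted p = 0.0391). Scaled to the EC markers Adcy4 was at -0.14 (adjusted p = 0.721) and Adcy6 turned to 0.32 (adjusted p = 0.325). With the replicate block none of these 3 genes passed, and with RSEM counts Adcy6 did not pass (edgeR, adjusted p = 0.0561). Without STOP replicate 1 the log2 fold changes of Gpr182, Adcy4 and Adcy6 were -2.17, -1.57 and -1.13. Without GO replicate 1 they were -2.24, -1.69 and -1.11. Calca, the gene of calcitonin and CGRP, was at 43.7 ± 4.76 CPM (SD, n = 2) in STOP and 21.5 ± 6.98 CPM (SD, n = 2) in GO (edgeR, log2 fold change 1.03, adjusted p = 0.0496). Its call was lost with DESeq2 size factors (edgeR, adjusted p = 0.0526), with RSEM counts (0.0586) and with the replicate block (0.101). Its log2 fold change scaled to the EC markers was 2.78 (edgeR, adjusted p = 2.43e-14).

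Of 24 genes of other vasoactive systems, 11 were tested in sprout ECs and 1 decreased, against 3.03% of all genes. This was the natriuretic peptide clearance receptor Npr3, at 10.8 ± 4.497 CPM (SD, n = 2) in STOP and 48.3 ± 10.9 CPM (SD, n = 2) in GO (edgeR, log2 fold change -2.16, adjusted p = 0.0212). Its log2 fold change scaled to the EC markers was -0.45 (edgeR, adjusted p = 0.216), and its adjusted p was 0.100 with the replicate block. In tumor ECs none of the genes of these lists passed the thresholds, with 2 tested for endothelin, 10 for adrenomedullin and CGRP and 9 for the other systems. The lowest p was that of Mmp2 among the endothelin genes (edgeR, log2 fold change -1.77, adjusted p = 1.00) and that of Tacr1, the receptor of substance P, among the other systems (1.497, adjusted p = 0.686). Tacr1 was at 144 ± 67.1 CPM (SD, n = 3) in KO and 51.1 ± 11.8 CPM (SD, n = 6) in WT and passed with DESeq2 (adjusted p = 0.0377), while Mmp2 turned to 0.35 without WT replicate 2.

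Whether the members responded differently in the 2 sets was tested as the difference of the log2 fold changes, KO over WT minus STOP over GO, in 1 fit of all 13 libraries. The sets also differ in tissue, library protocol and counting, which cannot be told apart from that difference. No member passed an adjusted p of 0.05, and 0.00634% of 15762 genes did. The difference was 2.89 ± 0.61 (SE; edgeR, adjusted p = 0.123) for Ednrb, 2.48 ± 0.66 (SE; adjusted p = 0.328) for Calcrl and 1.93 ± 0.67 (SE; adjusted p = 0.708) for Nos3. With limma voom and quality weights estimated per set, tumor or sprout, these 3 passed, against 0.876% of all genes in that fit. Ednrb was at 2.78 (limma voom, adjusted p = 0.0148), Calcrl at 2.62 (adjusted p = 0.0176) and Nos3 at 2.13 (adjusted p = 0.0378). For the others the edgeR difference was 2.00 for Edn1, 1.66 for Ece1, 1.40 for Ramp3, 1.26 for Ramp2, 1.12 for Adm and -6.60 for Ednra, the last of which was -3.62 without WT replicate 2.

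**Figure D5:**
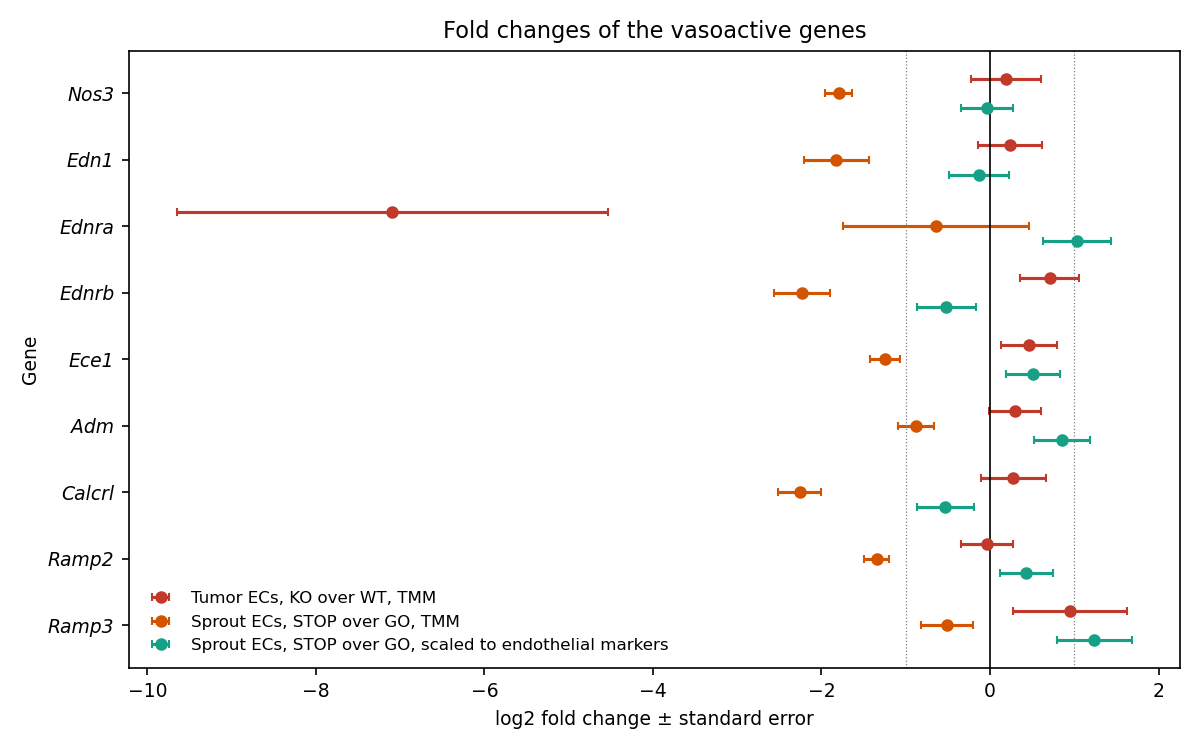
Log2 fold change with its standard error for each of the 9 genes in tumor ECs (KO over WT, red), in sprout ECs (STOP over GO, orange) and in sprout ECs scaled to the EC markers (green), with dotted lines at -1 and 1. The orange points lie below 0 for all 9 genes, but in green Ednra, Ece1, Adm, Ramp2 and Ramp3 lie above 0. The tumor points lie within 1 of 0 except Ednra at -7.09, which rests on 2, 0 and 0 counts in KO and was not tested without WT replicate 2.

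Levels of different genes can be compared only per length. The tumor counts come without transcript lengths, so the RSEM lengths of the sprout files were used. On these lengths Ramp2 was the highest of the 9 genes in all 4 groups and Ednra the lowest. The place of Ramp2 in the tumor groups rests on its RSEM length of 872 bases. The union of its exons in the GENCODE annotation spans 3301 bases. This is longer than its RefSeq span given above, and 1103 bases are shared with exons of Vps25. With exon unions as lengths, a choice made after seeing the data, Ramp2 was at 140 ± 42.1 CPM per kb (SD, n = 6) in WT. There it was below Adm at 250 ± 78.0 and Ece1 at 233 ± 47.8. In KO it was at 137 ± 39.1 (SD, n = 3), below Ece1, Adm, Ednrb and Ramp3. Which length applies to these cells was not tested. On RSEM lengths, in WT tumor ECs the order of CPM per kb was Ramp2 at 531 ± 159, Adm at 293 ± 91.4, Ece1 at 257 ± 52.6, Ednrb at 107 ± 29.8, Nos3 at 86.1 ± 46.4, Ramp3 at 84.3 ± 47.5, Edn1 at 46.0 ± 20.1, Calcrl at 24.8 ± 11.0 and Ednra at 3.87 ± 8.24 (SD, n = 6). Neighbours whose mean log2 gap was within its own SD over libraries were Adm and Ece1, Ednrb and Nos3, Nos3 and Ramp3, and Ramp3 and Edn1. In KO tumor ECs Ramp2 was at 518 ± 148 CPM per kb, Adm at 360 ± 102 and Ece1 at 354 ± 216 (SD, n = 3), and only the gaps from Nos3 to Edn1 and from Calcrl to Ednra exceeded their SD.

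In the sprouts the order was taken from the TPM that the authors computed with RSEM, so it rests on RSEM lengths too. It was not computed on exon unions there, so whether the place of Ramp2 depends on its RSEM length was not tested. In GO-labelled libraries Ramp2 was at 146 ± 21.2 TPM, Ece1 at 49.2 ± 13.6, Adm at 46.6 ± 4.39, Nos3 at 35.9 ± 6.89, Edn1 at 24.7 ± 1.68, Ednrb at 24.3 ± 5.76, Calcrl at 20.5 ± 5.11, Ramp3 at 10.8 ± 1.70 and Ednra at 6.65 ± 6.16 (SD, n = 2). Ece1 and Adm, Edn1 and Ednrb, and Ramp3 and Ednra did not differ beyond their spread. In STOP-labelled libraries Ramp2 was at 50.3 ± 1.70 TPM, Adm at 23.0 ± 5.67, Ece1 at 18.1 ± 2.09 and Nos3 at 9.16 ± 0.79 (SD, n = 2), and the other 5 genes lay between 3.72 and 6.77 TPM on average, where Ramp3 and Edn1, Edn1 and Ednrb, and Calcrl and Ednra did not differ beyond their spread. Calcrl was below its partner Ramp2 in every group on RSEM lengths, and in both tumor groups also on exon unions. The log2 ratio of Ramp3 to Ramp2, on the CPM scale, was -2.44 and -2.20 in STOP and -3.49 and -2.89 in GO.

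Across the 9 tumor libraries, which share a protocol and differ in depth, the members did not form 1 block. As a description, Pearson's r between members on the log scale ran from -0.84 for Ednra and Adm to 0.75 for Nos3 and Ramp3. Nos3 and Ece1 had r = 0.67 and the receptor pair Calcrl and Ramp2 r = 0.05. The genes whose pattern was most like a member's over the 9 libraries, of 13062 with a mean of at least 10 counts, are named here. For Ednra they were Agt (r = 0.98), Nfx1 (r = 0.97) and Vtn (r = 0.97), for Ednrb Insr (r = 0.97), Heatr5a (r = 0.95) and Ptprcap (r = 0.94), and for Ece1 Gja1 (r = 0.96), Gramd1a (r = 0.95) and Rpl41 (r = 0.94). For Nos3 they were Pla2g12a, Lrsam1 and Elovl5 (r = 0.95 each), and for Edn1 Spatc1 (r = 0.90), Schip1 (r = 0.88) and Taz (r = 0.88). For Adm they were Stoml1 (r = 0.95), Tmem115 (r = 0.92) and Rxra (r = 0.91), and for Calcrl Med1 (r = 0.98), Mtus1 (r = 0.94) and Srsf4 (r = 0.93). For Ramp2 they were Hlcs (r = 0.95), Zfp820 (r = 0.94) and Car2 (r = 0.93), and for Ramp3 Tspan14 (r = 0.97), Exoc3l (r = 0.97) and Haus8 (r = 0.96). These are given with no p. Those of Ednra, also with Adm, come from 0 to 36 counts in every library but WT replicate 2, which had 770. Agt was at 0 in 6 of the 9 libraries.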

How the data were processed

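For the tumor ECs the authors made libraries by Smart-Seq2, tallied reads on genes in featureCounts and deposited raw counts. The methods name STAR and the labels name Bowtie2 2.3.4.1 and Trim Galore 0.5.0 for these libraries, so the aligner is uncertain. For the sprout ECs the authors used poly-A selected libraries, aligned reads with STAR 2.5.0a and deposited HTSeq 0.6.1p1 counts, from which the closing tallies were left out, and RSEM 1.2.25 expected counts and TPM. Reads aligned to several places, 42.6% to 49.6% of all counts in the sprout tables, are a closing tally and enter no gene. Both sets use mm10.

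From these values, counts were tested with edgeR 4.0.16 in R 4.3.3 (TMM, at least 10 counts by filterByExpr, quasi-likelihood test with robust fitting, p-values adjusted over all genes by Benjamini-Hochberg), without a replicate block, in 1 fit per set and 1 joint fit for the difference. A gene was called at an adjusted p under 0.05 with a log2 fold change past 1 in either direction. Replicates differed by more than sampling noise (chi-square per degree of freedom of 19.2 to 166). Alternatives were DESeq2 1.42.0, its size factors, limma voom 3.58.1, no filter, rounded RSEM expected counts, scaling to 12 EC markers, a replicate block, no fold threshold and each library left out. The crossed block and the joint fits without single libraries were chosen after seeing the data. The fits were tested on simulated data.

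The members, gene lists and tests were chosen with earlier results of these data known. Named genes were the 9 members, Apelin as a check of the labels, genes of the pathway lists past the thresholds or with the lowest p of a list, and the 3 genes most correlated with each member over the tumor libraries. Percentages of the EC markers are ratios of CPM sums. No protein sequences were used here. The result of 1 gene that this rule names is not reported here.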

Additional observations from a re-analysis of the deposited data

Results flagged for a closer look

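The WT tumor ECs are the one group with more than 3 libraries, so the search for 1 library far from the rest was made there alone. Of 20 measures tested, 6 had such a value, and chance gives about 1 in 20. Ednra stood at 75.2 CPM in WT replicate 2, and the fibroblast markers of the same library summed to 5032 CPM. The log2 ratio of Ramp3 to Ramp2 was -6.74 in WT replicate 5. The leukocyte markers summed to 623 CPM and the erythroid and early blood markers to 2.58 CPM in WT replicate 4. The lymphatic EC markers summed to 2265 CPM in WT replicate 3.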

How the results depend on the processing

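In tumor ECs 0 members passed the thresholds under every alternative run. Genes decreased and increased over all genes were 7 and 9 without the filter and 97 and 19 with DESeq2, 2 decreased with the replicate block, and 1 to 2 decreased and 0 increased when each library was left out (2 without KO replicate 1). The log2 fold changes that changed sign were, scaled to the EC markers, Nos3 at -0.19, Edn1 at -0.037, Adm at -0.027 and Calcrl at -0.16, and, with the replicate block, Calcrl at -0.20 and Ramp2 at 0.057. With single libraries left out, log2 fold changes ranged from -0.078 to 0.47 for Nos3, -0.10 to 0.47 for Edn1, 0.16 to 1.04 for Ednrb, -0.16 to 0.74 for Ece1, 0.049 to 0.44 for Adm, 0.015 to 0.46 for Calcrl, -0.16 to 0.19 for Ramp2 and -2.73 to 0.35 for Mmp2. For Ramp3 they ranged from 0.69 to 1.15. Without WT replicate 2 or 3 Ednra did not pass the filter, and DESeq2 gave it no p, so these have no value.

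In sprout ECs, scaling to the EC markers left 16 genes decreased and 12483 increased, with 0 members decreased and 2 increased, and turned Ednra to 1.03, Ece1 to 0.51, Adm to 0.85, Ramp2 to 0.43, Ramp3 to 1.24, Ddah1 to 0.53 and Adcy6 to 0.32. The counts of increased genes were 222 without the filter, 198 with DESeq2 and 279 with no fold threshold. With the replicate block, 41 genes decreased and 3 increased, and 1 member remained decreased, Nos3, while adjusted p was 0.102 for Ednrb, 0.0759 for Ece1, 0.0578 for Calcrl and 0.0544 for Ramp2. Deviations of same-numbered libraries correlated at -0.434 in the sprouts and between -0.14 and 0.06 in the tumors, so the numbers are not shown to pair the libraries. With the numbers crossed, an alternative chosen after seeing the data, 933 genes decreased and 302 increased. With single libraries left out, 135 to 548 genes decreased and 12 to 341 increased, 4 to 7 members decreased, and Ednra ranged from -1.97 to 0.74. The count was 4 without STOP replicate 1, where Ece1 missed, or GO replicate 1, where Ednrb missed, and 7 without STOP replicate 2, where Edn1 and Adm passed. In these fits 1 group holds a lone library, assumed to vary like the other group, which alone gives the spread.

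The difference between the sets passed in 3 members and 138 genes with limma voom. With single tumor libraries left out it passed in 0 to 1 members and 1 to 9 genes. Without KO replicate 2 it passed in 9 genes, Ednrb among them (edgeR, adjusted p = 0.0479). The cause of these changes was not tested. Libraries of 2 per sprout group limit every sprout comparison, and the Ednra counts limit what can be said of it in tumor ECs.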
